A study of Solanum pimpinellifolium with 72 samples.

Results

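The genes described here were expressed in tomato meristems and the youngest buds, had dropped by 4 days post floral initiation (dpi), and then stayed level to 6dpi in the wild type (WT). They were chosen on the WT means of log2(RPKM + 1), where RPKM is the read number of a gene scaled to its length and to the mapped total of the library. A gene was taken if its mean fell by at least 1.5 from the early stage to 4dpi, if the mean at 6dpi lay between -0.5 and 0.5 of that at 4dpi, and if its mean at the early stage was at least 4 RPKM. The rule was met by 74 of the 34727 genes deposited, and all 74 were among the 20577 genes tested (at least 1 RPKM in at least 4 libraries). The genes that mark the centre of the floral meristem, SlWUS and SlCLV3, were both members. Both lay in the lower part of the band, with WT 6dpi minus 4dpi differences of -0.50 and -0.43. In RPKM their WT means still went down, from 4.78 at 4dpi to 2.92 at 6dpi for SlWUS and from 1.36 to 0.708 for SlCLV3. Because all 12 WT libraries chose the members, WT values and any comparison with WT are given as description only, and tests were made in the other 5 genotypes.

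In plants, the homeodomain factor WUSCHEL keeps the stem cells of a meristem undifferentiated, and the secreted CLAVATA3 peptide, made by those stem cells, restrains WUSCHEL. A floral meristem is determinate: the stem cell programme is shut down as the flower forms its organs, and a meristem in which this is delayed or enlarged makes more organs, in tomato more locules in the fruit. Cytokinin signalling favours WUSCHEL expression, and in Arabidopsis WUSCHEL represses type-A response regulators, which dampen the cytokinin response.

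Whole mRNA was sequenced from Solanum pimpinellifolium LA1589, a wild relative of tomato, at 3 stages in 6 genotypes with 4 replicates each, giving 72 libraries in 18 groups. The early stage (F&IM&2dpi) joined floral and inflorescence meristems with the 2dpi bud, while 4dpi and 6dpi were sampled as buds alone. Apart from WT, the genotypes were lc and fas, near-isogenic lines that carry the cultivated alleles at SlWUS and SlCLV3 respectively, the double mutant lc/fas, RNAi-SlCLV3, in which a hairpin made from a SlCLV3 fragment was driven by the constitutive CaMV 35S promoter, and HC2, a fas line complemented with a genomic copy of SlCLV3. All shared the LA1589 background. The labels of RNAi-SlCLV3 and HC2 speak of lines in the plural, and which transformant each library came from is not given in the sources used here. Inflorescences were pooled from individual greenhouse plants, and replicates were weekly collections that may share plants, so the p-values measure the spread between collections.

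Reads in genes, recovered from the deposited values, ran from 2.93 M (M for mega) to 58.6 M per library (median 19.1 M), and 7 libraries lay under 10 M. SlWUS rested on 14 to 1197 reads per library and SlCLV3 on 1 to 271, so in some libraries SlCLV3 rested on very few reads. The part of depth in its spread was not tested. The labelled stages were checked against markers. The meristem gene STM homolog fell in WT from a mean of 200.9 RPKM at the early stage to 74.7 at 4dpi and 48.1 at 6dpi, while the organ identity gene TAG1 rose from 1.26 to 43.1 and 115.3 RPKM. The green tissue gene LHCA4 homolog rose from 9.72 to 85.4 and 200 RPKM. In these bulk samples, fewer cells of a type and less RNA per cell cannot be told apart.

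The rule left few genes. Of 15732 genes with at least 4 RPKM at the early stage in WT, 125 fell by at least 1.5, and of those 25 fell further than the band at 6dpi, 26 rose above it and 74 stayed within it. The members with the smallest falls lay at -1.52, -1.57 and -1.58, and the nearest genes outside at -1.4985, -1.4976 and -1.4861. The nearest of those outside was Solyc02g089210, a MADS-box gene related to APETALA1, which is named here after its values were seen. SlWUS itself was the member closest to the lower edge of the band, with a 6dpi minus 4dpi difference of -0.4987, and the nearest gene beyond that edge had -0.5152. At the upper edge the nearest member had 0.45 and the nearest gene outside 0.53. The lowest early level was 4.10 RPKM inside and 3.71 RPKM just outside. In WT the members fell by a median of 2.07 on the log2 scale, from a median level of 10.8 RPKM at the early stage to 1.31 at 4dpi and 1.51 at 6dpi.

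Nearly all members fell in every other genotype. At 4dpi, 74 of 74 members were lower than at the early stage in lc, 73 in fas, 73 in lc/fas, 70 in RNAi-SlCLV3 and 73 in HC2 (limma, adjusted p below 0.05), and none was higher in any of the 5. Among all tested genes the same test called 21.7% lower in lc, 15.6% in fas, 9.36% in lc/fas, 8.6% in RNAi-SlCLV3 and 14.5% in HC2, and 12.9%, 11.9%, 10.8%, 10.7% and 10.7% higher in the same order. At 4dpi every library lay below every early library for 73 members in lc, 71 in fas, 73 in lc/fas, 67 in RNAi-SlCLV3 and 73 in HC2, beside 12.1%, 16.6%, 12.5%, 12.1% and 13.2% of all genes. All 70 members called in RNAi-SlCLV3 were called in every one of the 5 genotypes. The median change of the members was -2.12 in HC2, -2.0 in lc, -1.91 in lc/fas, -1.89 in fas and -1.68 in RNAi-SlCLV3, beside medians over all tested genes between -0.11 and -0.06. The smallest fall of the 5 genotypes was in RNAi-SlCLV3 for 48 members, in lc/fas for 12, in lc for 7, in fas for 7 and in HC2 for 0. Over all tested genes it was in RNAi-SlCLV3 for 27.4%, in lc/fas for 18.8%, in lc for 19.5%, in fas for 15.6% and in HC2 for 18.7%.

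Seen library by library, the median of the 74 members separated the early stage from the buds without overlap in every genotype. At the early stage it ran from 3.46 to 3.78 in WT, from 3.39 to 4.06 in lc, from 3.43 to 3.71 in fas, from 3.12 to 3.57 in lc/fas, from 3.06 to 3.34 in RNAi-SlCLV3 and from 3.6 to 3.82 in HC2. At 4dpi it ran from 1.17 to 1.76 over the 24 libraries, and the lc/fas libraries (1.17 to 1.36) overlapped those of lc and fas. The RNAi-SlCLV3 libraries stood lowest at the early stage, below every WT, lc, fas and HC2 library. At 4dpi their replicate 3 stood at 1.76, above every library of the other genotypes. The other RNAi-SlCLV3 libraries lay at 1.41 to 1.47, within the ranges of lc (1.19 to 1.61) and fas (1.32 to 1.49).

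**Figure D1:**
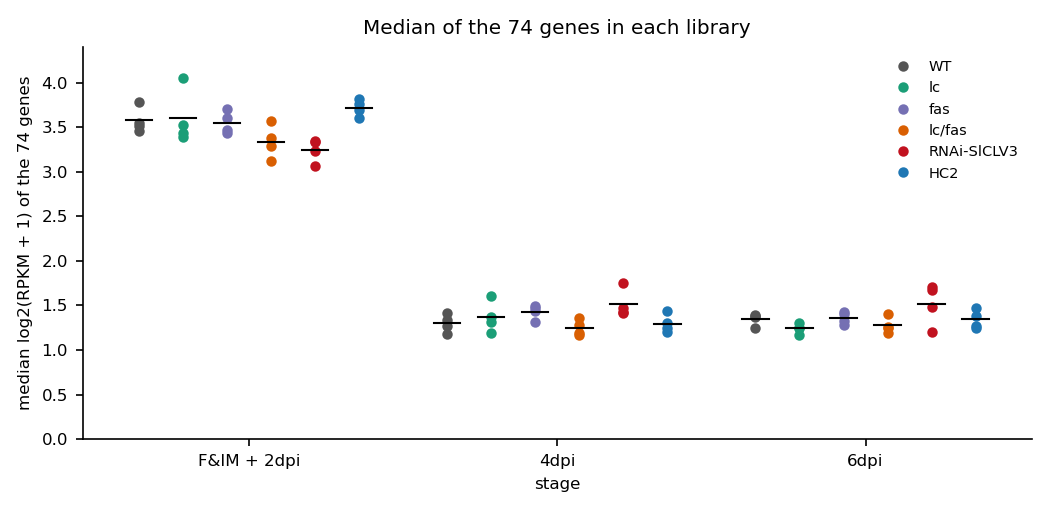
Median log2(RPKM + 1) of the 74 genes in each library (points; black bars are means of 4 libraries), by stage and genotype. Early libraries start at 3.06 and no 4dpi or 6dpi library exceeds 1.76. RNAi-SlCLV3 is low at the early stage (3.06 to 3.34) and reaches highest at 4dpi in replicate 3 alone.

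How far the genes fell differed between members more than between genotypes. At 4dpi the median member kept 12.6% of its early RPKM in WT, 12.9% in HC2, 14.4% in lc, 16.0% in fas, 16.7% in lc/fas and 21.4% in RNAi-SlCLV3. Such a share is also higher where the early level is lower. The early library medians averaged 3.24 in RNAi-SlCLV3, 3.34 in lc/fas and 3.55 to 3.72 in the other genotypes on the log2 scale. Between 26 and 31 of the 74 members were below a mean of 1 RPKM at 4dpi, depending on genotype. The deepest fall, averaged over the 5 genotypes, was that of Solyc01g067540, whose closest Arabidopsis gene in the study's annotation is AT5G18560, PUCHI, an AP2/ERF factor of lateral organ and floral development. In lc its libraries held 21.7, 20.4, 11.6 and 11.8 RPKM at the early stage and 0.11, 0, 0 and 0 RPKM at 4dpi. Its change was between -4.16 (HC2) and -3.33 (RNAi-SlCLV3), with an SE of 0.23 and adjusted p of at most 7.69e-18 (limma). It was followed by Solyc05g041220, the homolog of the F-box gene STERILE APETALA (SAP, AT5G35770), which is required for flower and ovule development in Arabidopsis. Solyc01g091420, homolog of the LOB-domain gene LBD18 (AT2G45420), fell from between 4.67 and 8.54 RPKM to at most 0.161 RPKM in group means at 4dpi, with changes from -3.11 to -2.31.

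**Figure D2:**
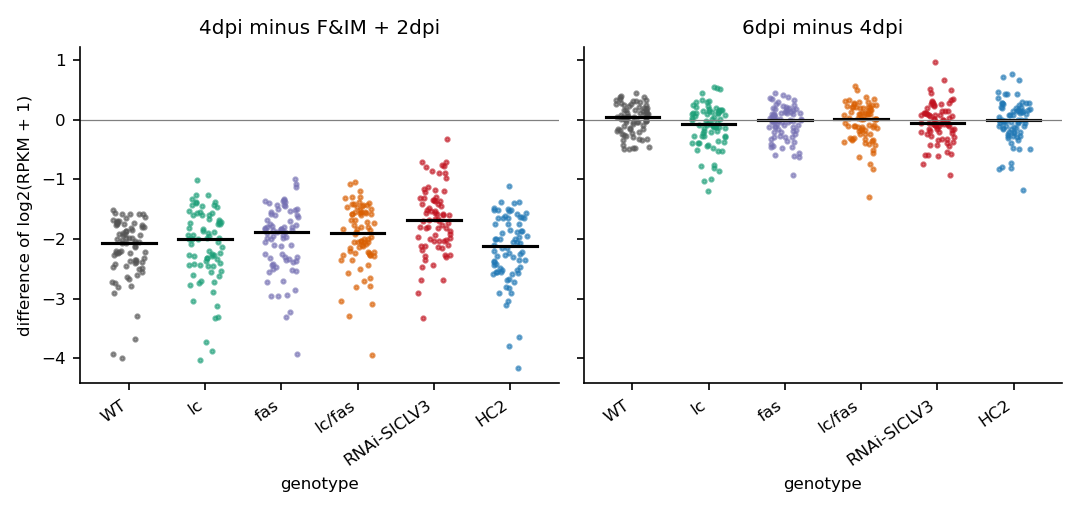
Change of each of the 74 genes from the early stage to 4dpi (left) and from 4dpi to 6dpi (right) as a difference of log2(RPKM + 1), by genotype; points are genes and black bars medians. WT chose the genes and is shown for reference. The medians on the left lie between -2.12 and -1.68 in the 5 other genotypes, and those on the right between -0.08 and 0.01.

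The members not called as falling were few. Solyc06g062540, homolog of the phosphate starvation induced pyrophosphatase AT1G73010, was not called in fas, lc/fas, RNAi-SlCLV3 or HC2, with changes of -1.53, -1.57, -0.71 and -1.11 (SE 0.62). Its libraries spread widely, from 3.24 to 23.9 RPKM at 4dpi in lc, and replicate 4 was the highest in every genotype at 4dpi. With the replicate number as a block it was called in fas, lc/fas and HC2 (adjusted p of 0.000563, 0.000453 and 0.0129, limma). It was also called without fas 4dpi replicate 4 (-1.96) and without lc/fas 4dpi replicates 1 or 4 (-1.87 and -1.88). In lc it was called (adjusted p = 0.0429) and lost the call without any 1 of 7 of the 8 lc libraries, with changes from -1.64 to -1.12. In RNAi-SlCLV3 the other 3 uncalled members were Solyc04g072070 (WRKY51 homolog, change of -0.97, SE 0.49, called with the block at an adjusted p of 0.0109), Solyc09g011870 (arogenate dehydrogenase homolog, -0.78, SE 0.44) and the unannotated Solyc11g011210 (-0.33, SE 0.27). Leaving out any 1 of 4 RNAi-SlCLV3 libraries (early replicates 2 and 4, 4dpi replicates 1 and 2) lost the call of Solyc02g093610, homolog of AT5G14360, whose change was -0.79 (SE 0.26, adjusted p = 0.0255) with all libraries and -0.71 to -0.67 without them. The WRKY51 homolog lost its call without early replicate 3 in fas (-1.33, adjusted p = 0.0545) and in lc/fas (-1.43, adjusted p = 0.0521), and Solyc09g011870 in fas without early replicates 2 or 3 or 4dpi replicates 1 or 3 (-1.18 to -0.77).

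From 4dpi to 6dpi few members were called as changed in the other genotypes. In lc 8 members fell and 1 rose, in fas 3 and 1, in lc/fas 3 and 0, in RNAi-SlCLV3 2 and 2, and in HC2 6 and 3 (limma, adjusted p below 0.05). As shares of the members, 10.8%, 4.05%, 4.05%, 2.70% and 8.11% fell and 1.35%, 1.35%, 0%, 2.70% and 4.05% rose. Over all tested genes the falling shares were 3.44%, 1.73%, 1.32%, 1.21% and 2.11%, and the rising shares 8.39%, 5.59%, 4.61%, 3.16% and 7.66% in the same order. On these small counts, falling shares were higher among the members and rising shares lower. The difference stayed within 0.5 in all 5 genotypes for 51 members, and 28 met the whole rule in each of the 5. Neither count has a share over all genes beside it. With the replicate block, the changed members numbered 8 in fas and 7 in lc/fas.

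Among those that went on falling was Solyc01g007270, homolog of LONELY GUY 7 (LOG7, AT5G06300), an enzyme that releases active cytokinin. It fell further in lc (-0.99), fas (-0.94), lc/fas (-1.29) and HC2 (-1.18, SE 0.28 each) and had adjusted p of 0.0131, 0.0253, 0.000995 and 0.00247 (limma). In lc/fas its libraries went from 11.5, 21.3, 15.8 and 7.05 RPKM at the early stage to 5.97, 7.11, 2.38 and 4.02 at 4dpi and between 0.739 and 1.8 at 6dpi. In RNAi-SlCLV3 it reached 3.47 ± 0.706 RPKM (SD, n = 4) at 4dpi and 2.70 ± 0.938 at 6dpi, and was not called. Without 1 library the call was lost in lc (4dpi replicate 2, 6dpi replicates 1 and 3, changes of -0.88 to -0.77) and in fas (4dpi replicate 2, 6dpi replicates 2 and 3, changes of -0.84 to -0.71). The count of changed members in lc was 5 without 4dpi replicate 2. In RNAi-SlCLV3 it was 2 without 4dpi replicate 2 or 6dpi replicate 3, in fas 2 without 6dpi replicate 3, and in lc/fas 1 without replicate 3 of either stage.

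SlCLV3, the target of the hairpin, was low at the early stage in RNAi-SlCLV3. Its libraries held 2.24, 4.60, 4.58 and 4.16 RPKM there. They held 7.76, 16.0, 9.43 and 8.05 in lc, 4.19, 6.44, 5.19 and 4.10 in fas, and 6.97, 10.5, 7.83 and 4.66 in WT. The RNAi-SlCLV3 libraries all lay below those of WT and lc and overlapped those of fas. Against the mean of lc and fas, which serves as the reference for tests because WT chose the genes, SlCLV3 was 0.75 lower (difference of -0.75, SE 0.20, adjusted p = 0.0166, limma). Without RNAi-SlCLV3 early replicate 1 the difference was -0.56 (adjusted p = 0.199), and without lc early replicate 2 it was -0.64 (adjusted p = 0.0568), and against HC2 in place of lc and fas it was -0.41 (adjusted p = 0.645). It was also not called with a pseudocount of 0.1, on the compared groups alone, or without replicate 1 or 4 of every group (adjusted p of 0.172, 0.0709, 0.24 and 0.0533, limma). Reads from the hairpin and from the gene itself cannot be told apart in these values.

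At 4dpi the SlCLV3 libraries of RNAi-SlCLV3 held 2.35, 1.29, 1.42 and 1.35 RPKM, fas 0.549, 1.14, 0.779 and 0.507, and lc 2.33, 5.56, 2.32 and 2.67. All 4 RNAi-SlCLV3 libraries stood above every fas library, and 3 of them below every lc library. The difference from the mean of lc and fas was -0.04 at 4dpi (95% interval -0.44 to 0.37) and -0.06 at 6dpi (-0.47 to 0.35), so neither a fall nor a rise was shown. SlCLV3 fell from the early stage to 4dpi by 0.89 in RNAi-SlCLV3 and by 1.43 to 1.77 in the other 4 genotypes (SE 0.23, adjusted p at most 0.00302, limma). Without replicate 4 of every group the RNAi-SlCLV3 change was -0.81 and not called (adjusted p = 0.0635). In lc, which held the most at 4dpi, it fell by a further 1.03 to 6dpi (SE 0.23, adjusted p = 0.00129), a call lost on the compared groups alone (adjusted p = 0.0517).

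SlWUS was retained in RNAi-SlCLV3 buds. At the early stage the genotypes overlapped, with RNAi-SlCLV3 at 28.1, 41.3, 26.9 and 36.7 RPKM, lc at 39.0, 67.4, 29.7 and 31.5 and fas at 32.3, 45.6, 25 and 27.9. At 4dpi RNAi-SlCLV3 held 14.2, 16.6, 12.8 and 14.2 RPKM, lc 5.77, 13.4, 3.52 and 4.52, and fas 6.16, 9.74, 6.10 and 5.04. Every RNAi-SlCLV3 library but replicate 3 lay above every lc and fas library, and lc replicate 2 stood apart from the other lc libraries. At 6dpi RNAi-SlCLV3 held 8.89, 9.94, 10.2 and 8.47 RPKM against 2.58 to 4.56 in lc and 3.04 to 5.25 in fas, with no overlap. The difference was 1.08 at 4dpi (SE 0.22, adjusted p = 0.000856) and 1.04 at 6dpi (SE 0.22, adjusted p = 0.00229, limma). Fitted on the compared groups alone, the 4dpi difference had an adjusted p of 0.0648, and without replicate 1 of every group the 6dpi difference was 0.93 (adjusted p = 0.137). Put as shares of the early mean, 43.5% of SlWUS remained at 4dpi in RNAi-SlCLV3, 26.5% in lc/fas, 20.7% in fas, 16.2% in lc, 15.4% in HC2 and 14.9% in WT. It still fell in RNAi-SlCLV3, by 1.13 (SE 0.26, adjusted p = 0.000581). From 4dpi to 6dpi SlWUS fell further in HC2 by 0.82 (SE 0.26, adjusted p = 0.0292), a call lost without 4dpi replicate 2 or 6dpi replicates 1 or 4 (-0.72 to -0.67).

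**Figure D3:**
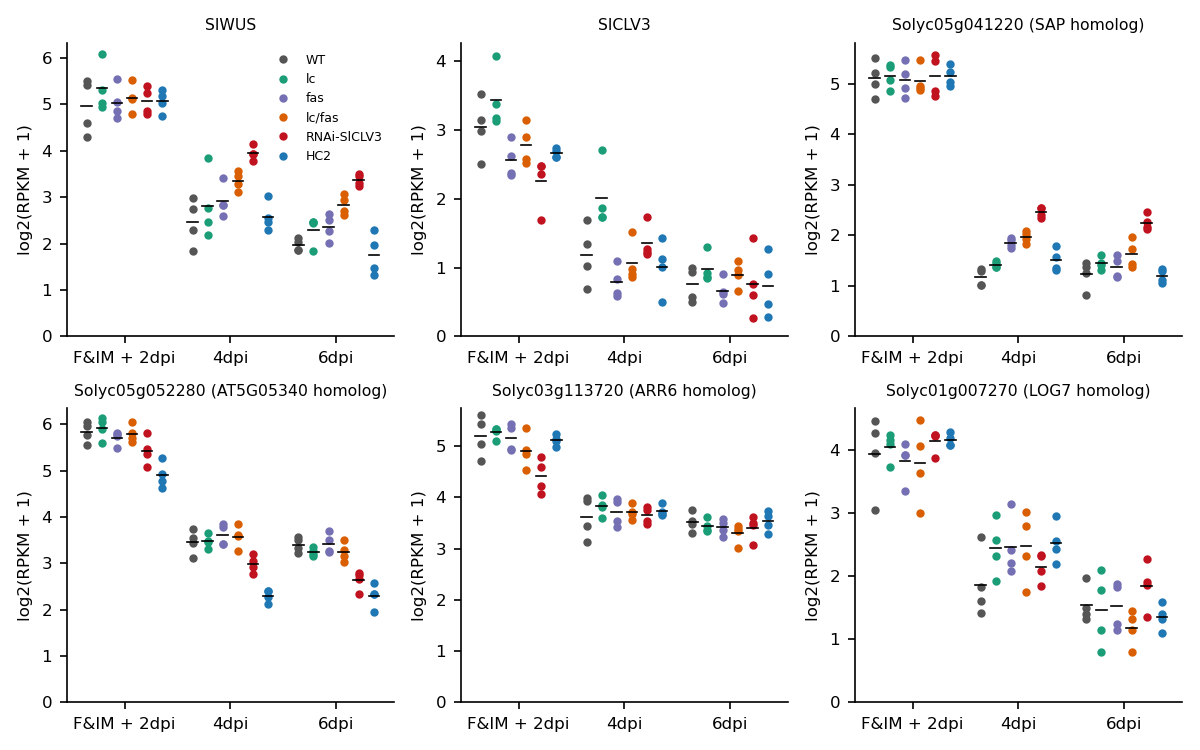
log2(RPKM + 1) of 6 of the genes in each library (points; black bars are means of 4 libraries), by stage and genotype. SlWUS and the SAP homolog stand highest in RNAi-SlCLV3 at 4dpi and 6dpi, the ARR6 homolog is low in RNAi-SlCLV3 at the early stage alone, and the AT5G05340 homolog is low in RNAi-SlCLV3 and HC2 buds.

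Over all members, 12 of 74 were higher in RNAi-SlCLV3 than in lc and fas at 4dpi and 1 was lower. The same test called 3.09% of all genes higher and 1.52% lower. At 6dpi 5 members were higher and 1 lower, beside 1.16% and 0.661% of all genes. Members called higher at both stages numbered 4 (0.933% of all genes), and 13 were called higher at 1 or both (3.31%). The median difference of the members was 0.12 at 4dpi and 0.16 at 6dpi, and that of all tested genes 0.04 and -0.01. All 4 RNAi-SlCLV3 libraries lay above all 8 of lc and fas for 8 members at 4dpi (2.23% of all genes) and for 5 at 6dpi (1.33%), and below all 8 for 2 at each stage (1.08% and 1.12%). Among the tissue markers, the STM homolog was higher in RNAi-SlCLV3 by 0.44 at 4dpi and 0.68 at 6dpi (SE 0.11, adjusted p of 0.0076 and 1.47e-05, limma), and its part in the result was not tested. The meristem marker SlCLV3 differed by -0.04 and -0.06 and was not called. Nor were the floral markers TM5 (0.03 and 0.01) and TAG1 (-0.02 and 0.09). The APETALA1-related Solyc02g089210 was higher by 0.75 and 0.68 (SE 0.15, adjusted p of 0.000361 and 0.00229, limma). At 4dpi and not at 6dpi, the ANT homolog was called higher, by 0.30 (SE 0.08, adjusted p = 0.0151, limma). The YAB5 and BOP2 homologs were called lower at 4dpi and not at 6dpi (-0.48 and -0.67, SE 0.11 and 0.15, adjusted p of 0.00225 and 0.00231, limma). Both were also lower at the early stage, as given below. The part of these genes was not tested. Of the green tissue markers, the LHCA4 homolog differed by 0.21 at 4dpi and the PORA homolog by 0.63 (adjusted p of 0.726 and 0.033, limma), and their part in the result was not tested either.

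The SAP homolog was the annotated gene called at both stages beside SlWUS on the high side. At the early stage the groups overlapped, with means between 32.8 and 35.8 RPKM in all 6 genotypes. At 4dpi RNAi-SlCLV3 held 4.82, 4.83, 4.11 and 4.31 RPKM, fas 2.87, 2.35, 2.52 and 2.73, and lc 1.59, 1.73, 1.57 and 1.82. At 6dpi it held 3.78, 3.34, 4.5 and 3.45 RPKM, against 1.27 to 2.06 over the lc and fas libraries. At both bud stages all 4 RNAi-SlCLV3 libraries lay above every library of the other genotypes. The difference from lc and fas was 0.83 at 4dpi and 0.84 at 6dpi (SE 0.14, adjusted p of 2.42e-05 and 2.39e-05, limma).

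Members without a name called at both stages were Solyc01g014250 and Solyc02g068410. Solyc01g014250 held 10.9, 10.2, 10.2 and 9.21 RPKM at 4dpi in RNAi-SlCLV3 against 4.96 to 6.10 in lc and 3.97 to 7.16 in fas, with differences of 0.74 at 4dpi and 1.19 at 6dpi (SE 0.22, adjusted p of 0.0333 and 0.000179, limma). Without fas 4dpi replicate 4 its 4dpi difference was 0.66 (adjusted p = 0.0687), and without any 1 of the 4 RNAi-SlCLV3 4dpi libraries it lay between 0.70 and 0.78 with adjusted p from 0.057 to 0.0949. Solyc02g068410 was a low gene, at 1.41, 1.52, 1.34 and 1.45 RPKM at 4dpi in RNAi-SlCLV3 and 0.383 to 0.771 over lc and fas. Its differences were 0.67 and 0.57 (SE 0.12, adjusted p of 4.60e-05 and 0.00118).

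The other annotated members higher at 4dpi and not called at 6dpi were Solyc01g100600, Solyc05g047710 and Solyc01g108320. Solyc01g100600, homolog of AT1G74150, held 26.6, 23.4, 21.6 and 19.4 RPKM in RNAi-SlCLV3, 14.6, 16.2, 13.8 and 13.6 in lc and 14.3, 15.9, 13.9 and 17.2 in fas, with no overlap. It was higher by 0.57 (SE 0.08, adjusted p = 1.04e-06), and by 6dpi the difference was 0.18 (SE 0.08, adjusted p = 0.454, limma). Solyc05g047710, homolog of the calcium-dependent lipid-binding protein gene AT3G61050, held 6.65, 4.37, 7.26 and 2.63 RPKM, against 0.459 to 3.5 in lc and 1.33 to 3.18 in fas, so that 1 RNAi-SlCLV3 library overlapped them. Its difference was 0.94 (SE 0.27, adjusted p = 0.0271, limma), and it was not called without lc 4dpi replicate 2, fas 4dpi replicate 2 or RNAi-SlCLV3 4dpi replicates 1, 2 or 3 (0.76 to 0.99, adjusted p from 0.0562 to 0.162).

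Both peroxidase genes among the members differed in RNAi-SlCLV3, in opposite directions. Solyc01g108320, homolog of AT1G49570, held 14.7, 21.2, 15.4 and 17.9 RPKM at the early stage in RNAi-SlCLV3, above every lc and fas library (9.08 to 14), and 4.48, 5.81, 5.54 and 3.07 at 4dpi, where it overlapped them (2.32 to 4.65). It was higher by 0.57 at the early stage and by 0.45 at 4dpi (SE 0.14, adjusted p of 0.00474 and 0.0387, limma). Without RNAi-SlCLV3 early replicate 2 the early difference was 0.47 (adjusted p = 0.0665). The 4dpi call did not hold without any 1 of 8 of the 12 libraries compared (all but lc replicates 2 and 3, fas replicate 2 and RNAi-SlCLV3 replicate 4), with differences from 0.36 to 0.47 and adjusted p from 0.0503 to 0.202. Against HC2 in place of lc and fas, both calls were lost (0.09 and 0.14).

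Solyc05g052280, homolog of the peroxidase gene AT5G05340, was the member lower in RNAi-SlCLV3 at both bud stages. It held 8.25, 6.56, 5.78 and 7.33 RPKM at 4dpi, against 8.87 to 11.6 in lc and 9.66 to 13.3 in fas, and 5.35, 5.76, 4.05 and 5.94 at 6dpi, against 7.87 to 9.29 and 8.47 to 11.9. The groups did not overlap. The difference was -0.56 at 4dpi and -0.70 at 6dpi (SE 0.13, adjusted p of 0.00295 and 0.00019, limma). HC2 lay below every RNAi-SlCLV3 library at 4dpi (3.37, 4.28, 4.32 and 3.82 RPKM) and overlapped it at 6dpi (2.85, 4.95, 4.07 and 4.06). Against HC2 RNAi-SlCLV3 was higher by 0.68 at 4dpi (adjusted p = 0.00211, limma) and by 0.34 at 6dpi (adjusted p = 0.482). Against lc, fas and HC2 together it was not called (-0.15 and -0.35). Without same-numbered replicate 2 of every group its 4dpi difference was -0.50 (adjusted p = 0.0897).

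**Figure D4:**
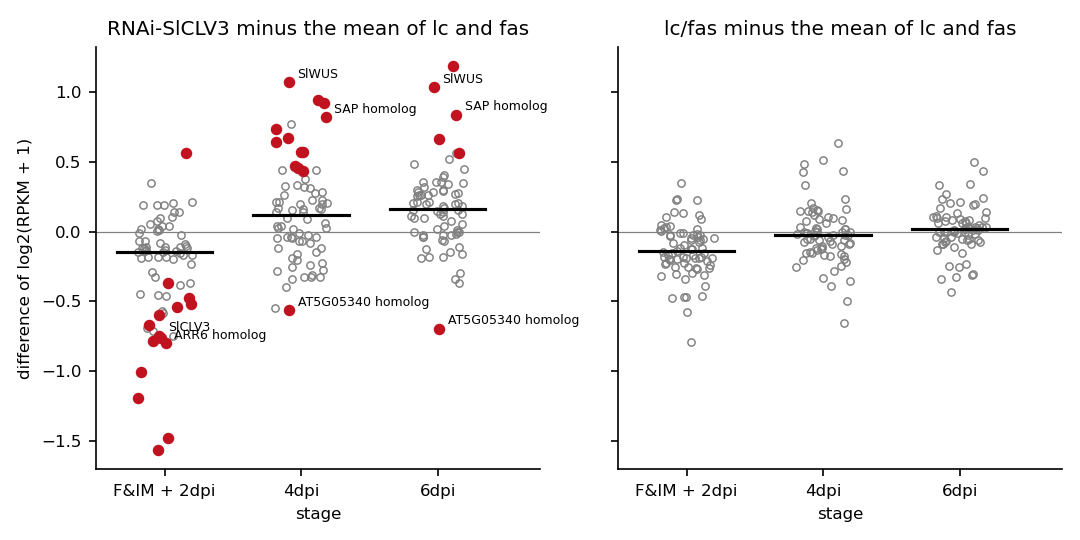
Difference of RNAi-SlCLV3 (left) and lc/fas (right) from the mean of lc and fas for each of the 74 genes, as log2(RPKM + 1), by stage. Filled points passed limma at an adjusted p below 0.05, open points did not, and black bars are medians; 14 genes were lower in RNAi-SlCLV3 at the early stage, 12 higher at 4dpi and 5 at 6dpi, and none was called in lc/fas.

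At the early stage the members were shifted the other way. In RNAi-SlCLV3 14 of 74 were lower than in lc and fas and 1 was higher, beside 1.8% of all genes lower and 2.54% higher, and the median difference was -0.14. The RNAi-SlCLV3 libraries lay below all 8 of lc and fas for 4 members (1.45% of all genes) and above them for 1 (2.15%). Without RNAi-SlCLV3 early replicate 3, 8 members were called in all. None of the 14 was called at 4dpi. The TM5 gene, a floral MADS-box gene that rises in buds, was lower in the same libraries by 0.79 (SE 0.19, adjusted p = 0.00463), the APETALA1-related Solyc02g089210 was higher by 0.73 (SE 0.15) and the PORA homolog higher by 0.87 (SE 0.19, adjusted p of 0.000407 and 0.00113, limma). Markers not called were TAG1 (0.34), the STM homolog (0.06), the LHCA4 homolog (0.49) and SlWUS (-0.12). Their adjusted p was 0.703, 0.9, 0.511 and 0.912 (limma). Other listed genes called lower at this stage were the YAB5 (-0.61), BOP2 (-0.71) and ZWI (-0.69) homologs. Called higher were SlCLE9 (2.25), the AGL20 (0.90), IAA7 (0.72) and SMO2-1 (0.45) homologs, and SlYABBY2b (1.14). Their adjusted p was at most 0.000907 (limma). The reference for SlYABBY2b includes fas, where its early mean was 4.12 RPKM. The stage pools meristems and young buds, and the part of these genes in the early result was not tested.

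Solyc03g113720, homolog of ARR6 (AT5G62920), a type-A response regulator that is induced by cytokinin and dampens its signal in Arabidopsis, was lower at the early stage in RNAi-SlCLV3. Its libraries held 17.6, 26.5, 15.7 and 23.1 RPKM, against 39.4, 39.6, 33.5 and 38.1 in lc and 39.7, 42.1, 30 and 29.2 in fas. The groups did not overlap, and the difference was -0.80 (SE 0.14, adjusted p = 5.28e-05, limma). At 4dpi all genotypes had means between 11.6 and 13.3 RPKM, and its fall was 0.76 in RNAi-SlCLV3 and 1.20 to 1.46 in the other 4 genotypes. The PUCHI homolog was lower by 0.77 (SE 0.20, adjusted p = 0.0117), at 8.37, 15.8, 6.48 and 8.39 RPKM against 11.6 to 21.7 in lc and 11.8 to 32.1 in fas, and lost the call without fas early replicate 2 or RNAi-SlCLV3 early replicates 1, 3 or 4 (-0.72 to -0.62, adjusted p from 0.0503 to 0.141). Solyc02g093610, homolog of AT5G14360, held 1.61, 2.3, 0.622 and 2.18 RPKM against 4.35 to 12 in lc and 3.73 to 7.21 in fas, and was lower by 1.48 (difference of -1.48, SE 0.23, adjusted p = 3.16e-06). It then rose from 4dpi to 6dpi in RNAi-SlCLV3 by 0.96 (SE 0.26, adjusted p = 0.018), a call lost without 4dpi replicates 1 or 2 or 6dpi replicates 2 or 3 (0.81 to 0.92).

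The estimated fall to 4dpi, called or not, was smaller in RNAi-SlCLV3 than in lc and fas for 63 of 74 members (85.1%) and for 62.5% of all tested genes, with a median difference of 0.32 on the log2 scale beside 0.05 over all genes. Of the 63, the estimated difference was above 0 at 4dpi in 42 and below 0 at the early stage in 50, most of them without a call. As a test of the difference itself, 2 members passed, beside 0.068% of all genes called in that direction and 0.0972% in the other. An unadjusted p below 0.05 was met by 26 members. The share of all genes at that limit is not given here, so the 26 are not read as a result. Neither of the 2 that passed has a name, and both are given here after their values were seen. They came by different routes. Solyc01g010150 began alike, at 81.2, 109, 66.1 and 85.3 RPKM in RNAi-SlCLV3 and 66.2 to 106 over lc and fas, and held 33.8, 32.9, 34.7 and 30.8 at 4dpi against 15.3 to 20.6, with a difference of change of 0.85 (SE 0.14, adjusted p = 0.000229). Fitted on the compared groups alone this had an adjusted p of 0.0516, and without replicate 3 of every group it was 0.76 (adjusted p = 0.0633). It then fell to 17.9 to 21.2 RPKM at 6dpi, a change of -0.75 (SE 0.11, adjusted p = 2.28e-06). Solyc10g007960 began low, at 0.746, 3.59, 1.04 and 5.59 RPKM against 3.93 to 17.9 in lc and fas, and was at or near 0 in all of them at 4dpi (difference of change 1.56, SE 0.34, adjusted p = 0.0164). Its 4dpi values leave this difference close to the early one with the sign turned (-1.57). Without RNAi-SlCLV3 early replicate 1 or 3, or 4dpi replicate 1, Solyc10g007960 was not called (1.26 to 1.45, adjusted p from 0.0528 to 0.141). Nor was it called on the compared groups alone or with a pseudocount of 0.1 (adjusted p of 0.43 and 0.638, limma). Without replicate 2 or 3 of every group it was not called either (adjusted p of 0.191 and 0.622).

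For SlWUS and the SAP homolog the difference of change was 1.19 (SE 0.32) and 0.78 (SE 0.20), which did not pass without a replicate block (adjusted p of 0.122 and 0.0721, limma). With the replicate number as a block both passed (adjusted p of 0.00844 and 0.0196, limma). Fitted on the compared groups alone, 0 members passed. In fits chosen after seeing the data both also passed, at adjusted p of 0.0448 and 0.0319 without libraries under 10 M reads and of 0.0472 and 0.0213 against lc, fas and HC2 together. The count of members that passed was 4 without RNAi-SlCLV3 early replicate 2 or lc early replicate 3, and 1 without RNAi-SlCLV3 early replicate 1 or 3.

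The double mutant lc/fas gave no member call. None of the 74 was higher or lower than the mean of lc and fas at the early stage, 4dpi or 6dpi, and none differed in its fall (limma, adjusted p below 0.05). For the fall, 0.0% of all genes were called in either direction, and 6 members had an unadjusted p below 0.05. Over all genes the test called 0.0535% lower and 0.0486% higher at the early stage, 0.0194% and 0.0486% at 4dpi and 0.0146% and 0.0194% at 6dpi. At an unadjusted p below 0.05, 6 members were lower at the early stage, 6 higher and 1 lower at 4dpi, and 1 higher at 6dpi. The share of all genes at that unadjusted limit is not given here, so no count at it is read as a result. The median difference of the members was -0.14, -0.02 and 0.02 at the 3 stages. The comparisons of lc/fas and of RNAi-SlCLV3 share the lc and fas libraries.

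SlWUS was the member with an unadjusted p below 0.05 at 6dpi. In lc/fas it held 8.69, 10.8, 7.68 and 9.99 RPKM at 4dpi and 5.15, 7.36, 5.55 and 6.72 at 6dpi. At 6dpi these overlapped fas (3.04 to 5.25), and at 4dpi they overlapped both lc and fas. The difference from lc and fas was 0.49 at 4dpi (95% interval 0.04 to 0.93) and 0.50 at 6dpi (0.06 to 0.95), with adjusted p of 0.892 and 1. The SAP homolog, at 3.05, 2.83, 2.56 and 3.27 RPKM at 4dpi, was above every lc library and overlapped fas, with a difference of 0.33 (0.06 to 0.61) and an adjusted p of 0.892. Solyc01g014250 was the member whose 4 lc/fas libraries (7.37, 8.29, 9.21 and 7.35 RPKM at 4dpi) all lay above the 8 of lc and fas, as did 0.141% of all genes, and no member lay below them (0.0389%). At the early stage and 6dpi no member lay above or below all 8 (0.102% and 0.102% of all genes at the early stage, 0.219% and 0.068% at 6dpi). In order of the 4dpi means, SlWUS stood at 4.78 in WT, 5.09 in HC2, 6.76 in fas, 6.81 in lc, 9.29 in lc/fas and 14.4 RPKM in RNAi-SlCLV3, and neighbours from WT to lc/fas overlapped in their libraries, while lc/fas and RNAi-SlCLV3 did not.

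Of the 74 members 20 carried an Arabidopsis homolog in the study's tables. The cytokinin genes were 2, the LOG7 and ARR6 homologs. Among genes of metabolism and defence, Solyc03g122340, homolog of the jasmonate lipoxygenase LOX3 (AT1G17420), was the most abundant annotated member, at 205 ± 39.9 RPKM (SD, n = 4) at the early stage in WT and 65.5 ± 13.5 at 4dpi. It fell by 1.31 to 1.64 in the other 5 genotypes (SE 0.26, adjusted p at most 8.02e-05). Solyc08g068730, homolog of the N-acetyltransferase NATA1 (AT2G39030), fell by 1.92 to 2.55, and Solyc10g075170, homolog of the aspartate aminotransferase ASP1 (AT2G30970), by 1.51 to 2.71. The genes of the lipid-transfer type Solyc08g078890 (AT1G62500 homolog) and Solyc07g065110 (AT5G55410 homolog) fell by 1.71 to 2.00 and by 0.71 to 1.54. In the last of these the smallest fall was in RNAi-SlCLV3, from 9.02 ± 0.867 to 5.19 ± 1.00 RPKM (SD, n = 4).

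Some members varied together between libraries of the same group. After subtraction of the group means, 12 members without a name formed a cluster (average linkage at a correlation of 0.6). Their pairwise correlations over 72 libraries ran from 0.55 to 0.94 (median 0.81), high by the choice of that cut. Over all other pairs the median was 0.08 and the range -0.58 to 0.83. This is a description of deviations that share library and depth. The 12 lay on 6 chromosomes by their identifiers, among them Solyc01g106660 and Solyc05g018110. Their mean level ran from 5.91 RPKM (HC2 replicate 2) to 15.2 (HC2 replicate 3) at the early stage, and from 0.640 (lc replicate 1) to 2.18 (RNAi-SlCLV3 replicate 3) at 4dpi. All 12 fell in all 5 genotypes, with medians from -2.45 in HC2 to -2.03 in RNAi-SlCLV3, and none differed between RNAi-SlCLV3 or lc/fas and the reference at any stage. In all 12 the estimated fall was smaller in RNAi-SlCLV3 than in lc and fas (0.19 to 0.45), so they are among the 63 members counted above. Whether they share sequence or reads was not tested. The next clusters held 3 members each, and the LOX3, WRKY51 and arogenate dehydrogenase homologs made up 1 of them. The members differed in how steady they were: the WRKY51 homolog ranged from 3.24 to 17.8 RPKM in lc at the early stage, while Solyc01g100600 ranged from 40.2 to 54.6.

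**Figure D5:**
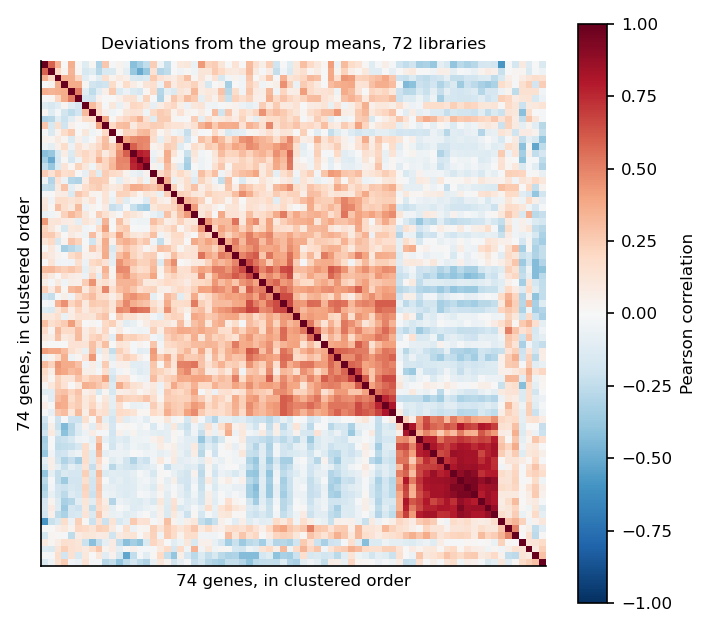
Pearson correlation between the 74 genes of their deviations from the group means of log2(RPKM + 1) over 72 libraries, in clustered order on both axes. The dark red square is the group of 12 genes, chosen on these correlations, which ran from 0.55 to 0.94 within it. Over all other pairs the median was 0.08 and the range -0.58 to 0.83.

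The rule took 74 of the 20577 tested genes, so lists this short would seldom hold a member. Of 3 genes of the CLAVATA-WUSCHEL list 2 were members, and the third, SlCLE9, a CLAVATA3-related peptide gene, fell by 1.03 in WT. SlCLE9 was higher in RNAi-SlCLV3 than in lc and fas by 2.25 early, 1.81 at 4dpi and 0.83 at 6dpi (adjusted p at most 0.00832, limma). None of the 5 meristem maintenance genes was a member: their WT changes ran from -1.41 (STM homolog) and -1.27 (ANT homolog) to 0.32 (SPL15 homolog). Of the 5, 3 were called lower at 4dpi in lc and 4 in RNAi-SlCLV3, beside 21.7% and 8.6% of all tested genes. The lists of boundary, auxin, YABBY, floral MADS-box, kinesin and cytokinesis, histone H2B, sterol and green tissue genes held no member. By identifier, the members lay on all 12 chromosomes, from 0.178% of the tested genes on chromosome 4 to 0.746% on chromosome 8. Solyc07g041130 and Solyc07g041140 were the members with adjacent identifiers.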

How the data were processed

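Strand-specific libraries were read by the authors as 50 bp single ends. TopHat2 with Bowtie2 placed the reads on the tomato genome with annotation ITAG2.3 (tool versions not given in the sources used here). The authors counted sense-strand reads and deposited RPKM for each gene and library. Here log2(RPKM + 1) of the 20577 genes that reached 1 RPKM in 4 or more libraries was fitted in limma 3.58.1 (trend, R 4.3.3) with 18 group means over all 72 libraries. Contrasts were two-sided, with Benjamini-Hochberg adjustment over all tested genes within a contrast, called below 0.05. On this scale the fold change of low genes is understated. The fit was tested on simulated data.

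Read totals were recovered from the steps of the RPKM values and used for depth alone. Gene names come from the study and homologs from its annotation tables, which covered 20 members; the files pair no identifier with a name. The members and lists were chosen with earlier results of these data known. Annotated members are named, with library values for those called in buds and for SlCLV3 and SlWUS, and of those without a name at most 2 in each direction and comparison. SlWUS, SlCLV3, the STM homolog, TAG1, TM5, and the LHCA4 and PORA homologs served as tissue markers.

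Same-numbered libraries were tested as pairs by the correlation of their residuals. Every pair exceeded 0.1 (from 0.101 to 0.674) in the comparisons of stages within a genotype, of RNAi-SlCLV3 with lc and fas at 4dpi, and of lc/fas with both at 4dpi and 6dpi. At least 1 pair did not for RNAi-SlCLV3 at the early stage and 6dpi and for lc/fas at the early stage. The pairing comes from the data and from weekly collection; the labels do not say that a number marks a week. Alternatives were a pseudocount of 0.1, other filters, 2 other scalings, fits of the compared groups alone, the replicate block, and each replicate or library left out. Added after seeing the data were HC2 as a reference and fits without libraries under 10 M reads (M for mega) and without the 12 members that varied together. Figures used Python 3.11.15 with matplotlib 3.10.9.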

Additional observations from a re-analysis of the deposited data

Results flagged for a closer look

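In 8 measures over the 18 groups (144 groups of 4 libraries), 14 groups held a library far from the other 3, where chance gives about 1 in 20; values are log2(RPKM + 1). For the median of the 74 genes these were RNAi-SlCLV3 4dpi replicate 3 (1.76, the others 1.41 to 1.47) and WT 6dpi replicate 2 (1.24). For SlWUS it was lc 6dpi replicate 1 (1.84). For SlCLV3 they were RNAi-SlCLV3 early replicate 1 (1.70), RNAi-SlCLV3 4dpi replicate 1 (1.74), lc 4dpi replicate 2 (2.71) and lc 6dpi replicate 2 (1.30). For the SAP homolog it was lc/fas early replicate 2 (5.47), and for the AT1G49570 homolog fas 6dpi replicate 2 (1.84) and lc 6dpi replicate 1 (1.26). For Solyc01g100600 they were WT 4dpi replicate 4 (4.02) and fas early replicate 3 (5.55), and for Solyc05g047710 WT 6dpi replicate 2 (1.21) and lc early replicate 3 (4.56).

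The early to 4dpi change differed between RNAi-SlCLV3 and the mean of lc and fas for Solyc01g010150 (difference 0.85, adjusted p = 0.000229) and Solyc10g007960 (1.56, adjusted p = 0.0164), both by the limma contrast of the changes. Neither passed on the compared groups alone (adjusted p of 0.0516 and 0.43, limma). Solyc10g007960 was lower in RNAi-SlCLV3 at the early stage (-1.57) and at or near 0 RPKM at 4dpi in these genotypes.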

How the results depend on the processing

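Of 2910 recomputed values of named genes, 2715 kept direction and side of the threshold, 167 lost the call, 11 gained it and 17 turned. The rule gave 116 members at the looser limit on the fall, 48 with a band of 0.25, 48 at 8 RPKM, and 75 to 84 without a replicate number, of which 64 to 70 were among the 74. A pseudocount of 0.1 gave 79 (55 shared), median-of-ratios scaling 67 (66 shared) and quantile normalization 67 (62 shared). With a mean of at least 5 RPKM, 34 members were tested and 34, 33, 33, 33 and 33 fell in lc, in fas, in the double mutant, in RNAi-SlCLV3 and in HC2; that filter also gave 2 changed from 4dpi to 6dpi in RNAi-SlCLV3, and against lc and fas 7 at the early stage, 3 at 6dpi and 1 for the fall. Fitting the compared groups alone gave 0, 1, 6 and 2 changed from 4dpi to 6dpi in lc, fas, lc/fas and HC2, and for RNAi-SlCLV3 6 at 4dpi, 6 at the early stage and 0 for the fall. A pseudocount of 0.1 gave 9 at the early stage and 1 for the fall, and quantile normalization 7 from 4dpi to 6dpi in lc/fas. The replicate block gave 8 and 7 changed in fas and lc/fas from 4dpi to 6dpi, 9 higher at 6dpi in RNAi-SlCLV3 and 7 for its fall, SlWUS and the SAP homolog among them (adjusted p of 0.00844 and 0.0196, limma). Among alternatives chosen after seeing the data, leaving out libraries under 10 M reads gave 2 changed in RNAi-SlCLV3 from 4dpi to 6dpi and 7 for the fall, and lc, fas and HC2 as reference gave 6 for the fall. The cause was not tested.

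Without single replicates, members that fell numbered 72 to 74 in lc, 71 to 74 in fas, 71 to 74 in lc/fas, 68 to 70 in RNAi-SlCLV3 and 72 to 73 in HC2. Those changed from 4dpi to 6dpi numbered 5 to 12, 1 to 4, 1 to 4, 2 to 5 and 5 to 10. Against lc and fas, RNAi-SlCLV3 gave 8 to 12 at 4dpi, 3 to 6 at 6dpi, 7 to 18 at the early stage and 0 to 4 for the fall, and lc/fas 0 throughout.

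Signs turned for values near 0 and against HC2. SlWUS at the early stage was 0.0051 against HC2 and -0.25 to 0.0092 over the fits without a replicate. Solyc11g011210 changed by -0.75 to 0.018 to 4dpi in RNAi-SlCLV3 over the same fits. Against HC2, Solyc05g052280 was 0.68 at 4dpi and 0.34 at 6dpi. SlCLV3 at 4dpi was 0.065 with a pseudocount of 0.1, 0.35 against HC2, 0.0901 against lc, fas and HC2, and -0.24 to 0.19 without a replicate. At 6dpi it was 0.031 against HC2, 0.11 without libraries under 10 M reads, and -0.28 to 0.13 without a replicate.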
